A study of Mus musculus with 26 samples.

Results

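The genes described here are 43 splicing regulators of the mouse: SR proteins, heterogeneous nuclear ribonucleoproteins (hnRNPs), the kinases that phosphorylate SR proteins, and a few of their relatives. They were chosen by name, and all 43 were found among the 15623 gene names of the deposited MC38 table and among the 15296 of the T cell table. By role they were 10 SR proteins, 2 Tra2 proteins, 18 hnRNPs, 2 polypyrimidine tract binding (PTB) proteins, 4 CLK kinases, 2 SRPK kinases and 5 SR-related or RNA-binding motif proteins. All of them passed the filter on low counts in both tables.

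SR proteins bind enhancer sequences in exons through their RNA recognition motifs and recruit the splicing machinery through a tail rich in arginine and serine. Many hnRNPs work against them by binding silencers in exons and introns, and the CLK and SRPK kinases set the activity and location of SR proteins by phosphorylating the tail. Many of these genes limit their own protein through splice forms that keep an intron or include a poison exon, an exon with an early stop codon that marks the RNA for nonsense-mediated decay. PRMT5 places symmetric dimethyl marks on arginines of the Sm proteins of the spliceosome and of several RNA-binding proteins.

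Poly(A) RNA was sequenced in 26 libraries, 17 from MC38/gp100 mouse colon adenocarcinoma cells and 9 from pmel-1 T cells. MC38/gp100 cells carry the gp100 antigen, which the transgenic receptor of pmel-1 T cells recognises. The tumour cells were either wild-type or Mtap knockout (KO) cells. Mtap encodes the enzyme that breaks down methylthioadenosine (MTA), a metabolite that binds PRMT5. Each was kept for 5 days with DMSO, with 0.5 μM of the PRMT5 inhibitor GSK3326595, or with 0.5 μM of MRTX1719, which inhibits PRMT5 in its complex with MTA. T cells received the same 3 treatments for 3 days in medium with IL-2, and so IL-2 is shared by all T cell groups and gp100 by all MC38 groups. Each group had 3 libraries, except wild-type cells with MRTX1719, which had 2 (replicates 1 and 3). The labels do not say whether the KO line is a clone or a pool, or whether replicates were separate cultures or animals, and p-values thus reflect only the spread among these libraries, possibly a technical one. For GSK3326595 replicates 2 and 3, the last digit of the compound name in the treatment label departs from that in the title, and a single compound was assumed.

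The MC38 libraries held 19302768 to 27786226 counts each, and those of T cells 13813406 to 20772699. Every KO library held less Mtap RNA than every wild-type library, but none lost it: the 3 DMSO libraries stood at 388, 393 and 397 CPM (counts scaled to a common library size) in wild-type and at 264, 274 and 276 CPM in KO cells. An edit can leave much of a gene's RNA in place, so a count over the whole gene checks the labels only in part. The labelled cell types were set against their markers. Among 4 epithelial markers Epcam was at 0 in 5 of the 6 MC38 groups, and the summed level of the 4 ran from 14.2 to 61.8 CPM, while the 5 fibroblast and endothelial markers summed to 651 to 1475 CPM. The T cell libraries held 3616 to 4977 CPM of 7 T cell markers, at most 0.920 CPM of 3 B cell markers, at most 0.562 CPM of 4 myeloid markers and at most 9.67 CPM of 2 natural killer cell markers. Replicate 1 stood apart in 2 groups of KO cells by the chi-square per gene between pairs of libraries. With GSK3326595 it differed from the others by 2.83 and 2.75, and these by 1.63 from each other, and with DMSO by 1.97 and 1.95 against 1.40. Without the first, 31 of the 43 genes in place of 30 passed in KO cells with GSK3326595, and without the second 28 did. In RNA from bulk cells, fewer cells of a type and less RNA per cell cannot be told apart.

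The isoforms by which these genes are often controlled are listed for most of them in GENCODE release M21 (mouse build GRCm38). Of the 43 genes, 33 (76.7%) had a model marked for nonsense-mediated decay, 36 (83.7%) a retained-intron model and 31 (72.1%) both. Of the 12242 protein-coding genes tested in MC38 cells, 28.7% had a decay model, 58.6% a retained-intron model and 22.7% both. The 43 genes were listed as regulators often controlled by such forms. Higher shares among them can thus follow from the choice and are not a result. The number of models listed for a gene differed as well, with a median of 10 for the 43 genes and 5 for all tested. A cassette exon holding the stop codon of a decay model was found for 8 genes: Srsf3, Srsf6, Srsf7, Tra2a, Tra2b, Hnrnpll, Rbm25 and Rbm39. The search took only whole exons inside an intron of a main coding model, with both flanking splice sites shared. Decay models with an incomplete start or no listed stop codon were left out, so further genes may have a poison exon. The deposited values count whole genes, so RNA with and without such an exon is summed in every level given here.

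Below are poison exons of the 3 SR proteins and both Tra2 proteins for which that search found one, since several results concern these genes. Each is read 5′ to 3′ from the start of the exon to the early stop codon, which stands in capitals, with the strand and GRCm38 position of the printed bases. The sequences are from the GENCODE M21 transcript of each decay model.
Srsf3 (plus strand, chr17:29039454-29039487, from an exon of 456 bases): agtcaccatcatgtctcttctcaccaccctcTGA
Srsf6 (plus strand, chr2:162932815-162932966, from an exon of 268 bases): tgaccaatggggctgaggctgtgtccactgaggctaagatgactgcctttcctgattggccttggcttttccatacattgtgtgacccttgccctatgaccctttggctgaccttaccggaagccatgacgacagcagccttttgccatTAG
Srsf7 (minus strand, chr17:80205054-80205081, from an exon of 460 bases): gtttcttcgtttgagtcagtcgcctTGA
Tra2a (minus strand, chr6:49252965-49253108, from an exon of 306 bases): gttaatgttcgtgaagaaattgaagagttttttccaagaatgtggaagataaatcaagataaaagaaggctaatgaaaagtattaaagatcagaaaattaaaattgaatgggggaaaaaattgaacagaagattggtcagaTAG
Tra2b (minus strand, chr16:22259181-22259261, from an exon of 276 bases): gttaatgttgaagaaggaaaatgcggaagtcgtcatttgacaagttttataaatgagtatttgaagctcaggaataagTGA
In Srsf3 and Srsf7 the stop comes 31 and 25 bases into the exon, and in Tra2b 78 bases in. In Tra2a and Srsf6 it comes after 141 and 149 bases.

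In 6 of 7 comparisons most of the 43 genes passed the test, with small changes, and the exception was MRTX1719 in wild-type cells, where 11 passed. A gene passed where its adjusted p was below 0.05 in edgeR's quasi-likelihood test, with p-values adjusted over all genes of the table by the Benjamini-Hochberg method, and every adjusted p given here is from that test. Between KO and wild-type cells under DMSO, 23 genes were higher in KO cells, 15 were lower and 5 did not pass, where 73.2% of all 14835 genes tested passed (36.2% higher and 37% lower). In wild-type cells GSK3326595 raised 19 and lowered 15, where 41.1% of all genes passed (20.1% higher and 21.1% lower). The 19 became 12 without the filter on low counts, with 15 lower, and the split became 15 higher and 16 lower without replicate 2 of DMSO and 14 and 15 without its replicate 3. There MRTX1719 raised 7 and lowered 4, where 7.53% of all genes passed (3.62% and 3.91%). Those 11 became 3 without replicate 1 of MRTX1719, 4 without its replicate 3, 5 without replicate 3 of DMSO and 7 without replicate 2 of DMSO. In KO cells GSK3326595 raised 14 and lowered 16, where 52.8% of all genes passed (27.7% higher and 25.1% lower), and MRTX1719 raised 15 and lowered 17, where 70.5% did (37% and 33.6%). For MRTX1719 there, 14 were higher and 22 lower with only the compared groups fitted, and 14 and 20 without the filter. In T cells GSK3326595 raised 25 and lowered 10, where 52.8% of 13753 genes passed (26.6% higher and 26.2% lower), and MRTX1719 raised 16 and lowered 11, where 37.4% did (18.9% and 18.5%). The 43 genes are among the more strongly counted ones, with a median of 235 CPM in each table against 22.5 and 16.8 CPM over all genes tested in MC38 cells and T cells, and depth bears on which small changes pass.

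**Figure D1:**
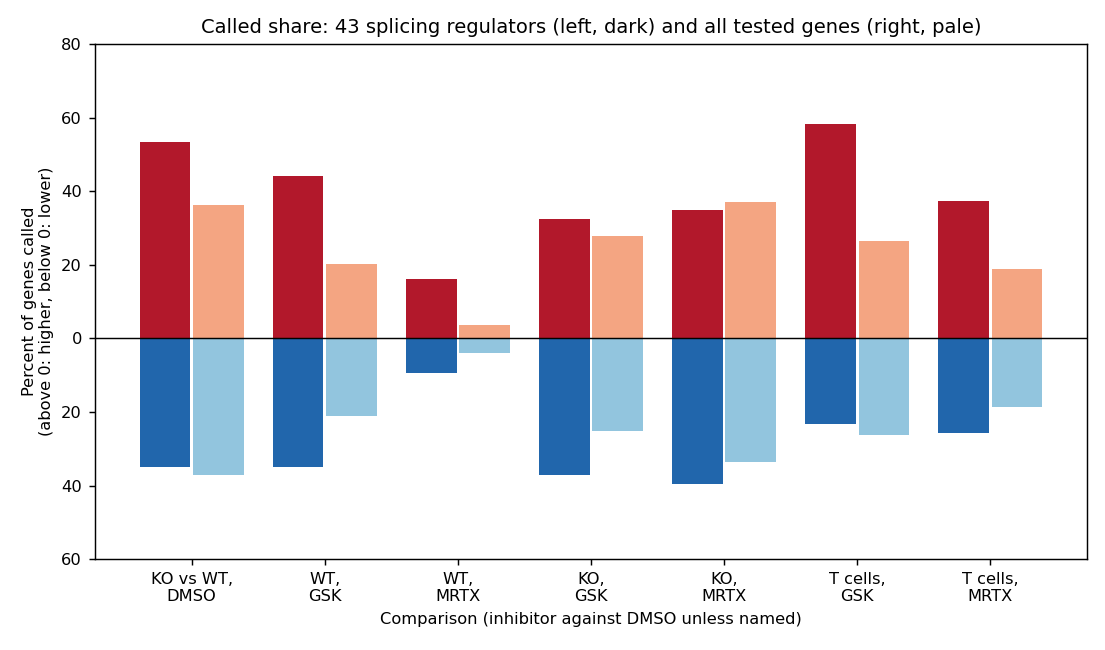
Percent of genes past an adjusted p of 0.05, higher above the axis and lower below it, for the 43 splicing regulators (dark bars) and for all genes tested (pale bars) in 7 comparisons, each inhibitor against DMSO unless named (GSK, GSK3326595; MRTX, MRTX1719). In wild-type cells with MRTX1719, 7 of the 43 were higher and 4 lower, beside 3.62% and 3.91% of all genes.

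The changes were small beside those of other genes. The median size of the log2 fold change was smaller for the 43 genes than for all genes tested in each of these 7 comparisons, for example 0.15 against 0.35 in KO cells with MRTX1719 and 0.10 against 0.14 in wild-type cells with GSK3326595. At least a 1.5-fold change past the threshold was reached by 4 of the 43 between KO and wild-type cells (30.5% of all genes), by 3 in T cells with GSK3326595 (16.1% of all genes) and by 1 in KO cells with MRTX1719 (25.2%). It was reached by 0 in wild-type cells with either inhibitor, in KO cells with GSK3326595 and in T cells with MRTX1719, where 5.14%, 0.229%, 9.56% and 5.86% of all genes did. The summed level of the 43 genes ran from 14276 to 14420 CPM in wild-type and from 15213 to 15245 CPM in KO cells under DMSO, without overlap. In T cells it ran from 13186 to 13437 CPM with DMSO, from 14277 to 14378 CPM with GSK3326595 and from 13561 to 13655 CPM with MRTX1719. Such separations were not particular to the 43 genes. Under DMSO a list of 55 further splicing regulators, described below, summed to 10480 to 10552 CPM in wild-type and 10627 to 10758 CPM in KO cells. In T cells that list summed to 10970 to 11066 CPM with DMSO, 11898 to 11962 CPM with GSK3326595 and 11123 to 11209 CPM with MRTX1719. The median log2 fold change of the 43 genes was -0.03 in KO cells with each inhibitor and 0.11 in T cells with GSK3326595, where the medians of all genes were 0.01, 0.02 and 0.00.

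**Figure D2:**
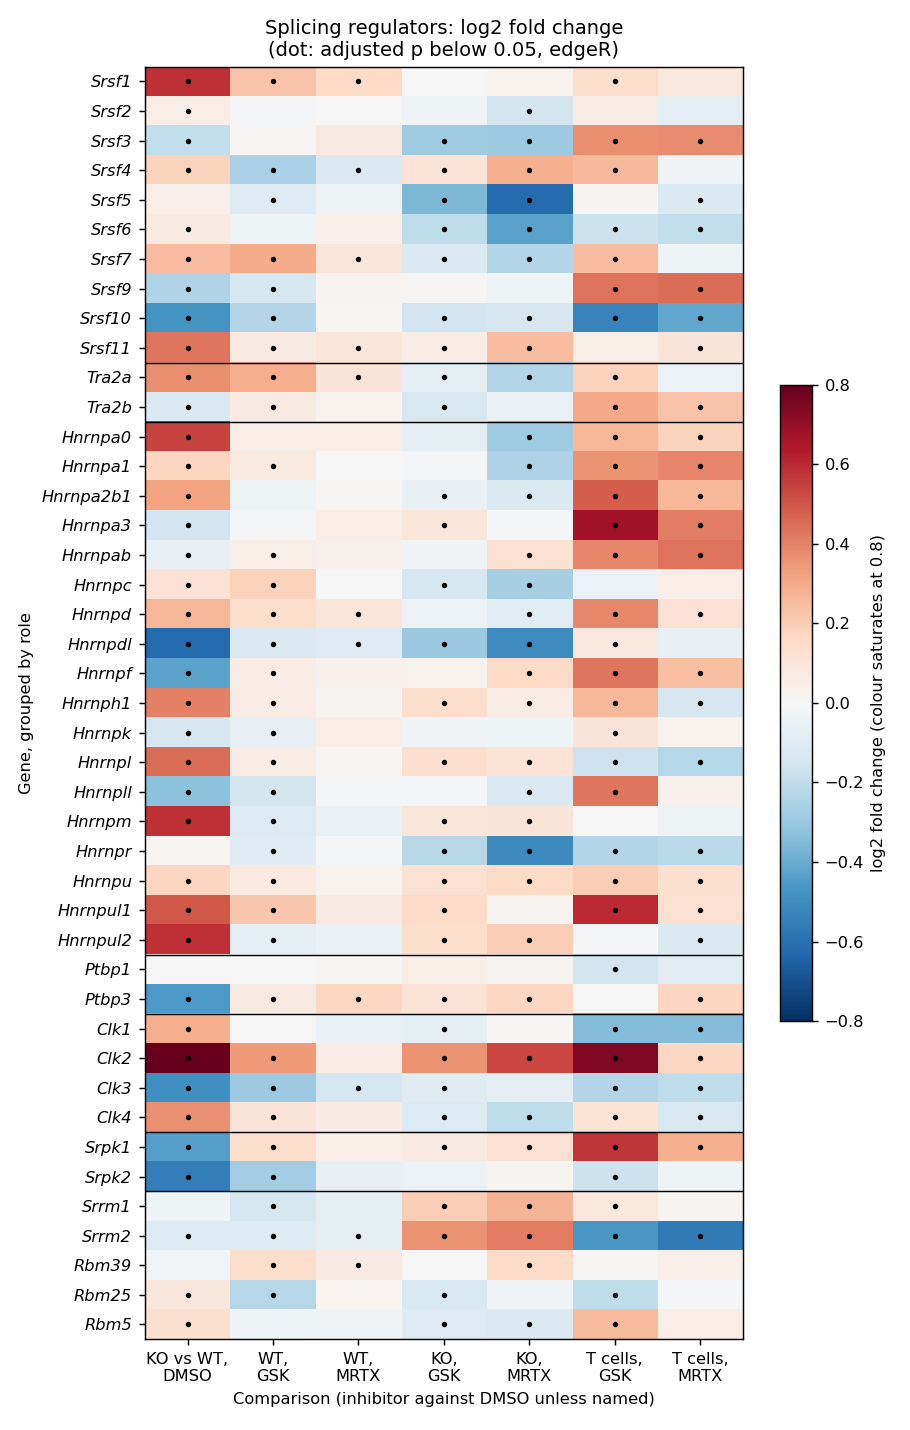
Log2 fold change of each of the 43 genes (rows, grouped by role) in 7 comparisons (columns), with red for higher, blue for lower and a dot where the adjusted p was below 0.05. Colours saturate at 0.8. Clk2 is red in every column, and its value between KO and wild-type cells, 1.08, is beyond the colour range.

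Other features moved with these comparisons. Immediate early and heat shock genes, which can respond to handling, summed to 6871 to 6948 CPM in wild-type cells with DMSO, 5652 to 5683 CPM with GSK3326595, 5934 to 5968 CPM with MRTX1719 and 4607 to 4755 CPM in KO cells with DMSO. Of the 14 such genes tested, 12 were lower and 0 higher in KO than in wild-type cells under DMSO. In wild-type cells 9 were lower and 3 higher with GSK3326595, and 11 were lower and 0 higher with MRTX1719, where 11 of the 43 splicing regulators passed. In KO cells 4 were lower and 3 higher with GSK3326595, and 7 were lower and 7 higher with MRTX1719. In T cells 11 of 13 were lower and 0 higher with GSK3326595, and 8 were lower and 2 higher with MRTX1719. So 85.7% passed between the lines, beside 73.2% of all genes. With GSK3326595 85.7% passed in wild-type, 50% in KO and 84.6% in T cells, beside 41.1%, 52.8% and 52.8% of all genes. With MRTX1719 the shares were 78.6%, 100% and 76.9%, beside 7.53%, 70.5% and 37.4%. Fibroblast and endothelial markers summed to 1459 to 1475 CPM in KO cells with DMSO and to 780 to 809 CPM with MRTX1719, and the T cell markers summed to 3616 to 3619 CPM with DMSO and 4956 to 4977 CPM with GSK3326595. The 2 natural killer cell markers summed to 4.97 to 5.91 CPM in T cells with DMSO, 7.36 to 8.59 CPM with GSK3326595 and 7.85 to 9.67 CPM with MRTX1719. Ncr1 was at 0 in all T cell libraries, and Klrb1c rose with both compounds, by log2 fold changes of 0.55 ± 0.14 and 0.66 ± 0.14. The part of all these features in the results was not tested.

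Among the 10 SR proteins, 6 were higher and 3 lower in KO than in wild-type cells under DMSO. GSK3326595 raised 3 and lowered 4 in wild-type cells, raised 2 and lowered 5 in KO cells, and raised 5 and lowered 2 in T cells. MRTX1719 raised 3 and lowered 1 in wild-type cells, raised 2 and lowered 6 in KO cells, and raised 3 and lowered 3 in T cells. So 90% of the SR genes passed between the lines, beside 73.2% of all genes. With GSK3326595 70% passed in each kind of cell, beside 41.1% of all genes in wild-type, 52.8% in KO and 52.8% in T cells, and with MRTX1719 40% in wild-type, 80% in KO and 60% in T cells, beside 7.53%, 70.5% and 37.4%. The SR genes summed to 2641 to 2685 CPM in KO cells with DMSO, 2398 to 2443 CPM with GSK3326595 and 2313 to 2344 CPM with MRTX1719, and these ranges do not overlap. In wild-type cells they summed to 2514 to 2541 CPM with DMSO, 2486 to 2545 CPM with GSK3326595 and 2557 to 2631 CPM with MRTX1719. T cell sums were 2344 to 2407, 2468 to 2550 and 2367 to 2407 CPM in the same order. Strongly counted genes weigh most in such sums, and in KO cells Srsf4 and Srsf11 rose with MRTX1719.

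Srsf5, an SR protein that binds exonic enhancers, had the largest decrease of the 43 genes in KO cells with each inhibitor. Its KO libraries stood at 509, 518 and 515 CPM with DMSO, at 400.1, 403 and 401 CPM with GSK3326595 and at 337, 334 and 334 CPM with MRTX1719. The 3 groups do not overlap, and the MRTX1719 libraries are the lowest. The log2 fold change was -0.36 ± 0.020 with GSK3326595 (SE; edgeR adjusted p = 8.43e-35) and -0.62 ± 0.021 with MRTX1719 (edgeR adjusted p = 1.27e-59), and MRTX1719 lay below GSK3326595 by a log2 difference of -0.26 ± 0.021. The wild-type libraries stood at 509, 497 and 493 CPM with DMSO, 468, 472 and 456 CPM with GSK3326595 and 492 and 479 CPM with MRTX1719, with log2 fold changes of -0.10 ± 0.020 and -0.04 ± 0.022, of which the second did not pass. The effect of MRTX1719 on Srsf5 differed between the lines by -0.58 ± 0.030 (log2; edgeR adjusted p = 4.46e-38).

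Srsf6, a further enhancer-binding SR protein and one of those with a poison exon printed above, had a like order in KO cells. Its libraries stood at 342, 341 and 332 CPM with DMSO, 294, 294 and 294 CPM with GSK3326595 and 257, 247 and 249 CPM with MRTX1719. Every treated library was below every DMSO library, and those with MRTX1719 were lowest. Log2 fold changes were -0.20 ± 0.022 and -0.43 ± 0.022. In wild-type cells Srsf6 stood at 324, 317 and 324, 314, 314 and 312 and 329 and 333 CPM with DMSO, GSK3326595 and MRTX1719, and neither inhibitor passed the test. The MRTX1719 effect differed between the lines by -0.47 ± 0.033 (edgeR adjusted p = 1.11e-27). In T cells Srsf6 fell with both, by log2 fold changes of -0.17 ± 0.038 with GSK3326595 and -0.20 ± 0.038 with MRTX1719, and the 95% interval of the difference between the compounds was -0.10 to 0.05.

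Srsf3, the smallest SR protein, which also takes part in mRNA export, fell in KO cells and rose in T cells. KO libraries stood at 309.5, 329.5 and 330.3 CPM with DMSO, 266, 268 and 263 CPM with GSK3326595 and 266, 259.9 and 267 CPM with MRTX1719. The treated libraries of both compounds lie in a single range below DMSO. T cell libraries stood at 199, 202 and 187 CPM with DMSO, 259, 248 and 254 CPM with GSK3326595 and 252, 256 and 255 CPM with MRTX1719. Here every treated library lies above every DMSO library. These gave log2 fold changes of -0.28 ± 0.022 and -0.29 ± 0.023 in KO cells and 0.37 ± 0.037 and 0.38 ± 0.037 in T cells, for GSK3326595 and MRTX1719 in that order. The difference between the compounds had a 95% interval of -0.06 to 0.03 in KO cells and of -0.07 to 0.08 in T cells, and neither passed the test. MC38 cells and T cells were scaled and fitted separately, so the difference between them was not tested.

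**Figure D3:**
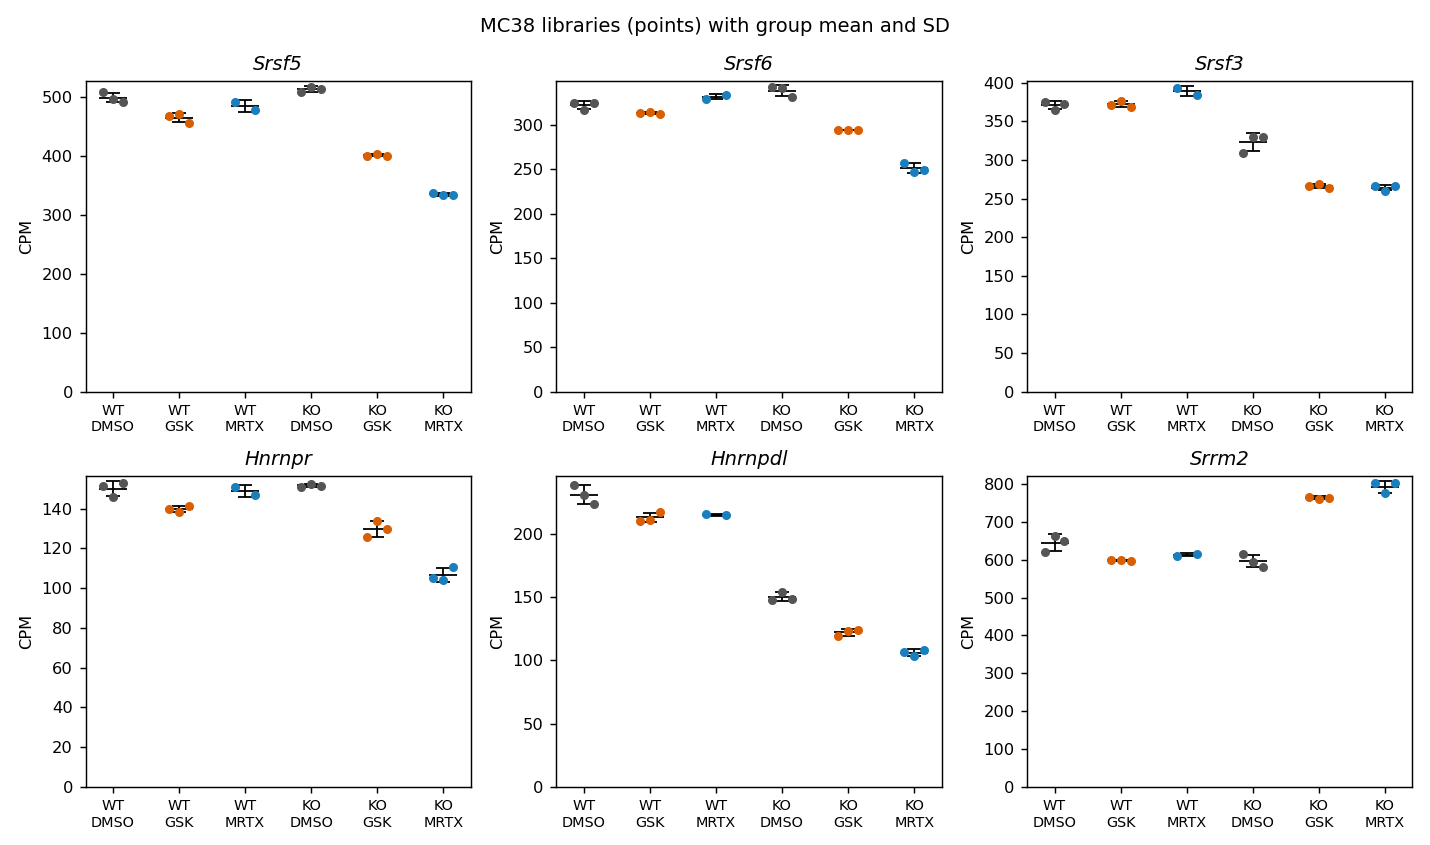
CPM of Srsf5, Srsf6, Srsf3, Hnrnpr, Hnrnpdl and Srrm2 in each MC38 library (points) by line and treatment, with the group mean and SD (bars, n = 3, or 2 for wild-type with MRTX1719). In KO cells the 3 treated libraries of each compound lie below DMSO for the first 5 genes and above it for Srrm2.

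Srsf7, a partner of Srsf3 in mRNA export that also has a poison exon, rose with GSK3326595 in wild-type cells and fell in KO cells. The wild-type libraries were at 213, 211 and 217 CPM with DMSO, 267, 262 and 261 CPM with GSK3326595 and 230.1 and 228 CPM with MRTX1719. The GSK3326595 libraries are the highest and do not overlap the others. The log2 fold change with GSK3326595 was 0.30 ± 0.024 (edgeR adjusted p = 8.85e-23), and MRTX1719 lay below it by -0.20 ± 0.026. KO libraries stood at 245, 261 and 255, 231, 237 and 235 and 214, 222 and 211 CPM with DMSO, GSK3326595 and MRTX1719, with log2 fold changes of -0.12 ± 0.024 and -0.23 ± 0.024. The difference of the GSK3326595 effect between the lines was -0.42 ± 0.034, the lowest such value among the 43 genes (edgeR adjusted p = 3.6e-22). In T cells Srsf7 rose with GSK3326595, by a log2 fold change of 0.25 ± 0.038, while the value with MRTX1719 was -0.04 ± 0.038 and did not pass.

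Srsf1, the founding SR protein, was among the members that rose most in the KO line. Under DMSO it stood at 218, 218 and 222 CPM in wild-type and at 337, 322 and 329 CPM in KO libraries, with no overlap and a log2 difference of 0.59 ± 0.023 (edgeR adjusted p = 7.52e-52). It rose in wild-type cells with both compounds, to 257, 264 and 250.3 CPM with GSK3326595 and to 249 and 241 CPM with MRTX1719, with log2 fold changes of 0.23 ± 0.023 and 0.16 ± 0.026. All 5 treated wild-type libraries lay above DMSO. In KO cells the levels were 319, 337 and 328 CPM with GSK3326595 and 332, 335 and 339 CPM with MRTX1719, with values of 0.00 ± 0.022 and 0.03 ± 0.023 that did not pass. The effects differed between the lines by -0.24 ± 0.032 for GSK3326595 and -0.13 ± 0.035 for MRTX1719.

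Srsf4, an SR protein with a long arginine and serine tail, moved in opposite directions in the lines. Wild-type libraries stood at 71.3, 77.3 and 74.3 CPM with DMSO, 61.4, 62.8 and 62.1 CPM with GSK3326595 and 71.3 and 66.1 CPM with MRTX1719. GSK3326595 is lowest, and the MRTX1719 libraries reach into the DMSO range. KO libraries stood at 83.0, 84.8 and 84.1, 93.5, 88.8 and 89.8 and 105, 99.6 and 103 CPM in the same order of treatments, and rise without overlap from DMSO to GSK3326595 to MRTX1719. The log2 fold changes were -0.26 ± 0.035 and -0.11 ± 0.038 in wild-type and 0.11 ± 0.033 and 0.29 ± 0.033 in KO cells, and the difference between the lines was 0.37 ± 0.048 for GSK3326595 and 0.40 ± 0.051 for MRTX1719 (edgeR adjusted p = 4.47e-11 and 5.26e-12). The fall with MRTX1719 in wild-type cells (edgeR adjusted p = 0.0467) no longer passed without replicate 2 or 3 of DMSO, without replicate 3 of MRTX1719 or with DESeq2. In T cells Srsf4 rose with GSK3326595, by 0.26 ± 0.040, and MRTX1719 lay below GSK3326595 by -0.28 ± 0.040.

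Srsf10, an SR-like protein that represses splicing in its dephosphorylated form, fell with both compounds in T cells. T cell libraries stood at 134, 131 and 130.4 CPM with DMSO, 88.7, 92.3 and 92.2 CPM with GSK3326595 and 100.5, 103 and 93.3 CPM with MRTX1719. All treated libraries are below all DMSO libraries, with log2 fold changes of -0.54 ± 0.043 and -0.42 ± 0.043 (edgeR adjusted p = 1.03e-19 and 6.29e-14). In wild-type cells it stood at 277, 269.8 and 276, 239, 232 and 228 and 282 and 272 CPM with DMSO, GSK3326595 and MRTX1719. It fell with GSK3326595, by a log2 fold change of -0.24 ± 0.023, but the value with MRTX1719 was 0.01 ± 0.026, and MRTX1719 lay 0.25 ± 0.026 above GSK3326595, the largest such value in that comparison. KO libraries were lower, at 197, 196 and 197 CPM with DMSO, and fell further with each compound (-0.15 ± 0.025 and -0.13 ± 0.025).

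Srsf9 and Srsf11 were the other SR genes among the largest changes of a comparison. Srsf9 rose in T cells from 33.9, 34.9 and 31.1 CPM with DMSO to 44.9, 45.1 and 44.8 CPM with GSK3326595 and 43.4, 47.0 and 45.7 CPM with MRTX1719, with log2 fold changes of 0.43 ± 0.061 and 0.45 ± 0.062. Srsf11 stood at 262, 261 and 272 CPM with DMSO, 265, 286 and 276 CPM with GSK3326595 and 316, 313 and 314 CPM with MRTX1719 in KO cells. The MRTX1719 libraries are the highest, and MRTX1719 lay 0.19 ± 0.023 above GSK3326595 (edgeR adjusted p = 3.25e-12). Srsf2, an SR protein of nuclear speckles, had inhibitor values from -0.15 in KO cells with MRTX1719 to 0.06 in T cells with GSK3326595, and the first of these passed the test.

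Both Tra2 proteins, which bind purine-rich exonic enhancers, rose with GSK3326595 in wild-type cells and in T cells and fell with it in KO cells. Tra2a stood at 109, 106 and 102 CPM with DMSO, 132, 131 and 125 CPM with GSK3326595 and 112 and 115 CPM with MRTX1719 in wild-type cells. Both treated groups are above DMSO, with log2 fold changes of 0.29 ± 0.030 and 0.10 ± 0.033, and the second no longer passed when replicate 2 or 3 of DMSO or either MRTX1719 library was left out. In KO cells it stood at 139, 139 and 133, 131, 130.3 and 129 and 119, 117 and 114 CPM in the same order, with log2 fold changes of -0.07 ± 0.029 and -0.23 ± 0.030. The effects differed between the lines by -0.36 ± 0.041 for GSK3326595 and -0.34 ± 0.045 for MRTX1719 (edgeR adjusted p = 1.39e-13 and 3.53e-11). The fall of Tra2a in KO cells with GSK3326595 did not pass when replicate 1 or 2 of DMSO or replicate 3 of GSK3326595 was left out. In T cells Tra2a rose with GSK3326595, by a log2 fold change of 0.18 ± 0.047, and its value with MRTX1719 was -0.05 ± 0.048.

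Tra2b rose in T cells with both compounds. It stood at 372, 376 and 360.0 CPM with DMSO, 455, 449.6 and 460.2 CPM with GSK3326595 and 435, 438 and 425 CPM with MRTX1719, and every treated library lies above every DMSO library. On the log2 scale the changes were 0.30 ± 0.034 and 0.23 ± 0.034, and the difference between the compounds, with a 95% interval of -0.14 to 0.00, did not pass. In KO cells Tra2b fell with GSK3326595, by a log2 fold change of -0.13 ± 0.025, and the value with MRTX1719, -0.05 ± 0.025, did not pass. In wild-type cells it rose with GSK3326595, by 0.07 ± 0.024, a call lost without the filter on low counts, and the effect of GSK3326595 differed between the lines by -0.20 ± 0.035. The Tra2 genes went opposite ways between the lines under DMSO, where Tra2a was higher in KO cells, by 0.37 ± 0.030, and Tra2b lower, by -0.12 ± 0.025.

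Of the 18 hnRNPs, 11 were higher and 6 lower in KO than in wild-type cells under DMSO. In T cells GSK3326595 raised 13 and lowered 2, and MRTX1719 raised 9 and lowered 4. In wild-type MC38 cells GSK3326595 raised 9 and lowered 6, while MRTX1719 raised 1, Hnrnpd, and lowered 1, Hnrnpdl, and 16 did not pass. The Hnrnpd call, a log2 fold change of 0.10 ± 0.028, was lost without replicate 3 of DMSO or replicate 1 of MRTX1719. In KO cells GSK3326595 raised 7 and lowered 4, and MRTX1719 raised 7 and lowered 8. The share of hnRNPs that passed was 94.4% between the lines, beside 73.2% of all genes. With GSK3326595 it was 83.3% in wild-type, 61.1% in KO and 83.3% in T cells, beside 41.1%, 52.8% and 52.8% of all genes. With MRTX1719 it was 11.1%, 83.3% and 72.2%, beside 7.53%, 70.5% and 37.4%. Some hnRNP genes have near-identical copies elsewhere in the mouse genome, among them processed pseudogenes, and counting could split their reads. Which of the 18 are affected was not examined.

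The A and B group hnRNPs, which coat nascent RNA and repress exons, rose together in T cells. Hnrnpa3 stood at 569.6, 557 and 536 CPM with DMSO, 886, 878 and 885 CPM with GSK3326595 and 735, 711 and 758 CPM with MRTX1719. The 3 groups do not overlap, and GSK3326595 is highest, with log2 fold changes of 0.67 ± 0.033 and 0.41 ± 0.033 (edgeR adjusted p = 8.6e-33 and 1.11e-18). Hnrnpa2b1 rose by log2 fold changes of 0.48 ± 0.033 with GSK3326595 and 0.27 ± 0.033 with MRTX1719, and Hnrnpa0 by 0.27 ± 0.045 and 0.18 ± 0.045. Hnrnpa1 stood at 512, 519.6 and 522 CPM with DMSO, 667, 660.2 and 663 CPM with GSK3326595 and 675, 680.4 and 684 CPM with MRTX1719, and its log2 fold changes were 0.36 ± 0.033 and 0.39 ± 0.033. Hnrnpab stood at 297, 303 and 316, 401, 407 and 393 and 411, 425 and 405 CPM in the same order, with log2 fold changes of 0.39 ± 0.035 and 0.44 ± 0.035. For Hnrnpa1 and Hnrnpab the difference between the compounds did not pass, with 95% intervals of -0.03 to 0.10 and -0.02 to 0.11.

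In KO cells these genes went different ways. Hnrnpa3 stood at 892, 889.6 and 899.9 CPM with DMSO, 936, 963 and 964 CPM with GSK3326595 and 875, 898 and 873 CPM with MRTX1719. It rose with GSK3326595, whose libraries all lie above DMSO, by a log2 fold change of 0.10 ± 0.019, and its value with MRTX1719 was -0.02 ± 0.019. Hnrnpa1 stood at 1514, 1495 and 1476 CPM with DMSO, 1473, 1506 and 1469 CPM with GSK3326595 and 1259.9, 1266 and 1249.8 CPM with MRTX1719. The MRTX1719 libraries are the lowest, with a log2 fold change of -0.25 ± 0.018, while the value with GSK3326595 was -0.01 ± 0.018, and MRTX1719 lay below GSK3326595 by -0.24 ± 0.018 (edgeR adjusted p = 5.16e-25). Hnrnpa2b1 fell with both compounds, by -0.06 ± 0.018 and -0.12 ± 0.019, and Hnrnpa0 fell with MRTX1719, by -0.29 ± 0.066. Hnrnpab rose with MRTX1719, by 0.12 ± 0.021.

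Hnrnpul1 and Hnrnph1 separated the compounds in T cells. Hnrnpul1, a relative of the scaffold protein Hnrnpu, stood at 97.4, 103 and 99.95 CPM with DMSO, 149, 154 and 150.3 CPM with GSK3326595 and 113, 106 and 108 CPM with MRTX1719. Its log2 fold changes were 0.59 ± 0.042 and 0.12 ± 0.043, and MRTX1719 lay below GSK3326595 by -0.47 ± 0.041 (edgeR adjusted p = 1.77e-17). The rise with MRTX1719 did not pass without replicate 1 of DMSO or replicate 1 of MRTX1719. Hnrnph1, which binds runs of G, stood at 355, 362 and 346, 438, 408 and 432 and 323, 324 and 321 CPM in the same order. It is highest with GSK3326595 and lowest with MRTX1719, with no overlap, and its log2 fold changes were 0.27 ± 0.035 and -0.14 ± 0.035.

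Several other hnRNPs rose in T cells with GSK3326595. Hnrnpll, a regulator of Ptprc splicing in lymphocytes, rose with GSK3326595, by a log2 fold change of 0.43 ± 0.069, the value with MRTX1719 was 0.03 ± 0.072, and MRTX1719 lay below GSK3326595 by -0.39 ± 0.069. Hnrnpd, which binds AU-rich elements, rose by 0.39 ± 0.037 and 0.11 ± 0.037, and Hnrnpf, a relative of Hnrnph1, by 0.43 ± 0.036 and 0.24 ± 0.037. Hnrnpu rose by 0.20 ± 0.033 and 0.13 ± 0.034, and Hnrnpk, which binds runs of C, rose with GSK3326595 by 0.10 ± 0.037, a call lost without replicate 3 of DMSO or of GSK3326595. Hnrnpl, which binds CA repeats, and Hnrnpr fell with both compounds, by -0.17 ± 0.035 and -0.23 ± 0.035 and by -0.23 ± 0.043 and -0.21 ± 0.043. Hnrnpc and Hnrnpm did not pass with either. Hnrnpdl passed with GSK3326595 (0.09 ± 0.037) and Hnrnpul2 with MRTX1719 (-0.12 ± 0.041). The first was lost without replicate 1 or 2 of DMSO or replicate 1 or 3 of GSK3326595, and the second without replicate 1 of DMSO or of MRTX1719.

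**Figure D4:**
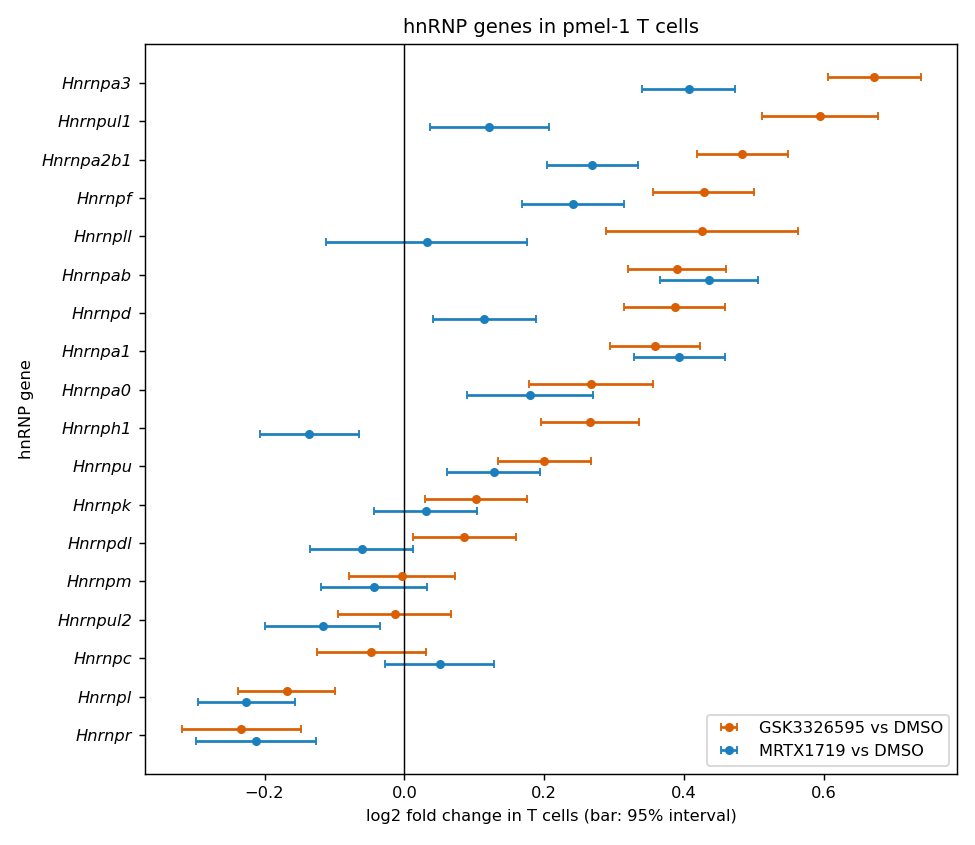
Log2 fold change (points) and 95% interval (bars) of the 18 hnRNP genes in T cells, with GSK3326595 and with MRTX1719 against DMSO, ordered by the value with GSK3326595. Hnrnpa3 and Hnrnpul1 are highest with GSK3326595, at 0.67 and 0.59, and the 2 compounds share the DMSO libraries.

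Hnrnpdl, a paralog of Hnrnpd, was lower in KO cells and fell further with both compounds. The wild-type libraries were at 239, 231 and 224 CPM with DMSO and KO libraries at 148, 154 and 149 CPM, without overlap, a log2 difference of -0.62 ± 0.026 (edgeR adjusted p = 5.17e-49). In KO cells it stood at 119, 123 and 124 CPM with GSK3326595 and 107, 103 and 108 CPM with MRTX1719, with log2 fold changes of -0.30 ± 0.028 and -0.50 ± 0.029. In wild-type cells it stood at 211, 211 and 218 CPM with GSK3326595 and 216 and 215 CPM with MRTX1719, with log2 fold changes of -0.12 ± 0.025 and -0.10 ± 0.028. All treated libraries lay below DMSO in both lines. The fall with MRTX1719 in wild-type cells did not pass without replicate 1 of DMSO or without either MRTX1719 library, and the effect of MRTX1719 was larger in KO cells by -0.40 ± 0.040 (edgeR adjusted p = 4.14e-17).

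Hnrnpr, an RNA-binding protein of the nucleus and cytoplasm, fell most with MRTX1719 in KO cells. It stood at 151, 153 and 152 CPM with DMSO, 126, 134 and 129.8 CPM with GSK3326595 and 105, 104 and 110.5 CPM with MRTX1719. The 3 groups do not overlap. The log2 fold changes were -0.22 ± 0.028 and -0.51 ± 0.029, and MRTX1719 lay below GSK3326595 by -0.29 ± 0.029 (edgeR adjusted p = 2.65e-16), the largest decrease of that comparison. Wild-type libraries stood at 151, 146 and 153 CPM with DMSO, 140.0, 138 and 141 CPM with GSK3326595 and 151 and 147 CPM with MRTX1719, and the MRTX1719 effect differed between the lines by -0.50 ± 0.042 (edgeR adjusted p = 1.72e-21).

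Hnrnpc, which binds uridine tracts, rose with GSK3326595 in wild-type cells and fell in KO cells. The wild-type libraries were at 356, 355 and 352 CPM with DMSO, 412, 399 and 399.7 CPM with GSK3326595 and 352 and 359 CPM with MRTX1719, and KO libraries at 379, 382 and 392, 340.5, 356 and 351 and 323, 321 and 317 CPM. In the fit the log2 fold changes were 0.19 ± 0.021 and 0.00 ± 0.024 in wild-type and -0.14 ± 0.021 and -0.26 ± 0.022 in KO cells, and the GSK3326595 effect differed by -0.33 ± 0.030 (edgeR adjusted p = 1.69e-18). Hnrnpul2 stood at 153, 150.2 and 154 CPM in wild-type and 229.5, 227 and 230.5 CPM in KO libraries under DMSO, without overlap, with a log2 difference of 0.59 ± 0.025 (edgeR adjusted p = 3.97e-48). Hnrnpm, Hnrnpa0, Hnrnpul1, Hnrnpl and Hnrnph1 were also higher in KO cells, by 0.58 ± 0.021, 0.54 ± 0.067, 0.50 ± 0.024, 0.45 ± 0.023 and 0.40 ± 0.020. Hnrnpf and Hnrnpll were lower, by log2 differences of -0.43 ± 0.022 and -0.33 ± 0.031.

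Of the PTB proteins, which bind pyrimidine-rich RNA and repress exons, Ptbp1 passed the test in 1 of the 7 comparisons. It did not differ past the threshold between the lines (0.01 ± 0.020). Its MC38 values ran from -0.01 to 0.04 with the inhibitors and none passed, and in T cells it fell with GSK3326595 by a log2 fold change of -0.16 ± 0.035. Ptbp3 stood at 159, 161 and 159 CPM with DMSO, 167, 165 and 172 CPM with GSK3326595 and 179 and 178 CPM with MRTX1719 in wild-type cells. The MRTX1719 libraries are the highest, and its log2 fold change of 0.16 ± 0.029 was the largest increase of the 43 genes in that comparison (edgeR adjusted p = 2.08e-05). In KO cells Ptbp3 was lower under DMSO, at 117, 116 and 115 CPM, a log2 difference of -0.46 ± 0.028, and rose with both compounds (0.11 ± 0.029 and 0.17 ± 0.029). T cell libraries stood at 124, 129 and 125, 124, 122 and 132 and 147, 148 and 130.3 CPM with DMSO, GSK3326595 and MRTX1719. Ptbp3 rose there with MRTX1719, by 0.17 ± 0.043, its value with GSK3326595 was 0.01 ± 0.043, and MRTX1719 lay 0.17 ± 0.043 above GSK3326595.

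The 4 CLK kinases, which phosphorylate SR proteins in the nucleus, did not move together. Under DMSO Clk1, Clk2 and Clk4 were higher and Clk3 lower in KO than in wild-type cells. GSK3326595 raised Clk2 and Clk4 and lowered Clk3 in wild-type cells, raised Clk2 and lowered the other 3 in KO cells, and raised Clk2 and Clk4 and lowered Clk1 and Clk3 in T cells. MRTX1719 lowered Clk3 in wild-type cells, raised Clk2 and lowered Clk4 in KO cells, and raised Clk2 and lowered the other 3 in T cells.

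Clk2 had the largest increase of the 43 genes in 5 of the 7 comparisons. Under DMSO its wild-type libraries stood at 34.6, 34.7 and 35.8 CPM and its KO libraries at 73.6, 72.2 and 75.7 CPM, a log2 difference of 1.08 ± 0.040 (edgeR adjusted p = 3.35e-55). All KO libraries are above all wild-type libraries. With GSK3326595 it stood at 44.1, 44.9 and 44.3 CPM in wild-type and 97.1, 92.2 and 95.6 CPM in KO cells, with log2 fold changes of 0.34 ± 0.042 and 0.36 ± 0.034. With MRTX1719 it stood at 36.4 and 36.6 CPM in wild-type and 102, 106 and 112 CPM in KO cells. The log2 fold change was 0.06 ± 0.049 in wild-type cells, which did not pass, and 0.53 ± 0.034 in KO cells, and their difference was 0.47 ± 0.059 (edgeR adjusted p = 2.8e-12). For GSK3326595 the difference between the lines had a 95% interval of -0.09 to 0.13 and did not pass.

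The compounds differed on Clk2 in each kind of cell. MRTX1719 lay below GSK3326595 by a log2 difference of -0.28 ± 0.046 in wild-type cells and above it by 0.17 ± 0.032 in KO cells. In T cells Clk2 stood at 113, 113 and 116 CPM with DMSO, 189.8, 192 and 190.3 CPM with GSK3326595 and 125, 128 and 129 CPM with MRTX1719. The GSK3326595 libraries are the highest, and the 3 groups do not overlap. Log2 fold changes were 0.74 ± 0.039 (edgeR adjusted p = 1.22e-30) and 0.16 ± 0.041, and MRTX1719 lay below GSK3326595 by -0.58 ± 0.039 (edgeR adjusted p = 1.14e-23).

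Clk1 fell in T cells with both compounds. It stood at 136, 136 and 139 CPM with DMSO, 106, 104 and 112 CPM with GSK3326595 and 108, 109.8 and 106 CPM with MRTX1719. The treated groups overlap each other and lie below DMSO. Log2 fold changes were -0.35 ± 0.042 and -0.35 ± 0.042, and the difference between the compounds had a 95% interval of -0.08 to 0.09. In wild-type cells Clk1 stood at 125, 123 and 119, 120.4, 125 and 122 and 119 and 116 CPM with DMSO, GSK3326595 and MRTX1719, and neither compound passed. In KO cells it was higher under DMSO, at 152, 148 and 149 CPM, a log2 difference of 0.29 ± 0.028, and GSK3326595 lowered it by -0.08 ± 0.028, a call lost without replicate 1 of GSK3326595.

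Clk3 was lower with GSK3326595 in all 3 kinds of cells. In wild-type cells it stood at 78.0, 76.4 and 81.0 CPM with DMSO, 65.3, 61.1 and 66.1 CPM with GSK3326595 and 71.6 and 70.9 CPM with MRTX1719. Treated libraries lie below DMSO, with log2 fold changes of -0.29 ± 0.035 (edgeR adjusted p = 3.65e-12) and -0.14 ± 0.039 (edgeR adjusted p = 0.0121). The second did not pass without replicate 3 of DMSO, without either MRTX1719 library or with DESeq2. KO libraries stood at 55.7, 57.4 and 54.0 CPM with DMSO, a log2 difference of -0.49 ± 0.037 from wild-type, and at 54.4, 50.8 and 51.2 CPM with GSK3326595, a fold change of -0.10 ± 0.039 that was lost with DESeq2 and without any of 3 libraries (replicate 2 of DMSO, replicates 2 and 3 of GSK3326595). T cell values were -0.23 ± 0.039 and -0.20 ± 0.039 with GSK3326595 and MRTX1719.

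Clk4 rose with GSK3326595 in wild-type cells and fell in KO cells. Wild-type libraries stood at 55.5, 53.7 and 56.9 CPM with DMSO and 60.2, 60.9 and 57.0 CPM with GSK3326595, and KO libraries at 71.8, 69.9 and 72.3, 64.6, 66.0 and 67.9 and 59.3, 61.8 and 64.6 CPM with DMSO, GSK3326595 and MRTX1719. The log2 fold change in wild-type cells was 0.10 ± 0.037, a call lost without replicate 2 of DMSO or replicate 1 or 2 of GSK3326595 and with DESeq2, and the values in KO cells were -0.11 ± 0.036 and -0.20 ± 0.037. The difference between the lines was -0.21 ± 0.052 for GSK3326595 and -0.27 ± 0.056 for MRTX1719 (edgeR adjusted p = 0.000415 and 9.69e-06). In T cells the log2 fold change of Clk4 was 0.11 ± 0.044 with GSK3326595 and -0.13 ± 0.045 with MRTX1719. The first was lost without replicate 1 or 2 of DMSO or replicate 3 of GSK3326595, the second without replicate 1 or 3 of DMSO or replicate 1 of MRTX1719, and both with DESeq2. The difference between the compounds was -0.24 ± 0.044 (edgeR adjusted p = 5.23e-06).

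**Figure D5:**
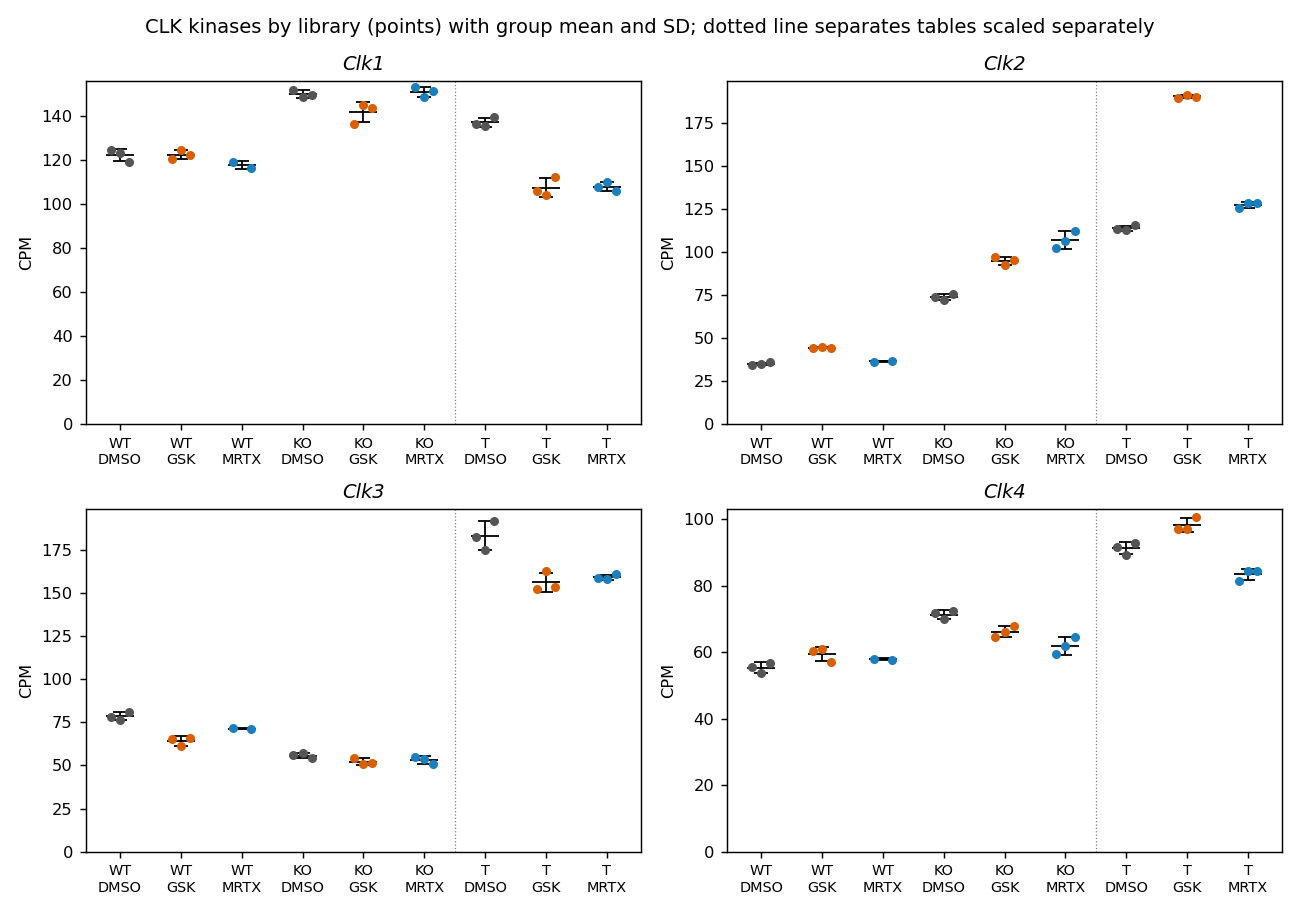
CPM of the 4 CLK kinases in every library (points) with the group mean and SD, for wild-type (WT) and KO MC38 cells and T cells with each treatment (n = 3, or 2 for wild-type with MRTX1719). A dotted line separates the MC38 and T cell tables, which were scaled separately. Clk2 in T cells is highest with GSK3326595, and Clk1 there is lower with both compounds than with DMSO.

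The SRPK kinases, which phosphorylate SR proteins in the cytoplasm before their import, were both lower in KO than in wild-type cells. Srpk2 stood at 98.6, 97.1 and 94.5 CPM in wild-type and 68.6, 64.8 and 64.7 CPM in KO libraries under DMSO, without overlap, with a log2 difference of -0.55 ± 0.035 (edgeR adjusted p = 4.53e-32). In wild-type cells it stood at 80.2, 81.4 and 77.7 CPM with GSK3326595 and 91.8 and 93.5 CPM with MRTX1719. It fell with GSK3326595, by a log2 fold change of -0.28 ± 0.033 (edgeR adjusted p = 7.91e-13), and MRTX1719 lay 0.22 ± 0.037 above it. In T cells Srpk2 stood at 113, 116 and 113, 102, 104 and 97.8 and 109.9, 116 and 108 CPM with DMSO, GSK3326595 and MRTX1719, and MRTX1719 lay 0.14 ± 0.043 above GSK3326595, which did not pass without replicate 3 of GSK3326595 or replicate 2 of MRTX1719.

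Srpk1 rose in T cells with both compounds. It stood at 281, 278 and 285 CPM with DMSO, 426, 410.4 and 421 CPM with GSK3326595 and 338, 343 and 345 CPM with MRTX1719. The 3 groups do not overlap, and GSK3326595 is highest. These gave log2 fold changes of 0.57 ± 0.035 and 0.28 ± 0.035 (edgeR adjusted p = 7.55e-27 and 1.05e-10). In KO cells Srpk1 was lower than in wild-type under DMSO by a log2 difference of -0.44 ± 0.027. Its log2 fold changes in wild-type cells were 0.14 ± 0.025 with GSK3326595 and 0.05 ± 0.028 with MRTX1719, and the second did not pass.

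Srrm2, a large scaffold protein of nuclear speckles, rose in KO cells and fell in T cells. KO libraries stood at 615, 595 and 581 CPM with DMSO, 767, 761 and 764 CPM with GSK3326595 and 802, 775 and 804 CPM with MRTX1719. Every treated library is above every DMSO library, with log2 fold changes of 0.36 ± 0.020 and 0.41 ± 0.020 (edgeR adjusted p = 1.76e-35 and 4.68e-42). The wild-type libraries were at 620.2, 664 and 651 CPM with DMSO, 599, 599 and 598 CPM with GSK3326595 and 611 and 616 CPM with MRTX1719. The treated ones are lower, with log2 fold changes of -0.11 ± 0.020 and -0.07 ± 0.022, the second of which did not pass without replicate 2 or 3 of DMSO or either MRTX1719 library. The effects differed between the lines by 0.46 ± 0.028 for GSK3326595 and 0.48 ± 0.030 for MRTX1719, the largest increases in both tests. T cell libraries stood at 1144, 1129 and 1156, 831, 829 and 826 and 769, 772 and 772 CPM with DMSO, GSK3326595 and MRTX1719, with log2 fold changes of -0.46 ± 0.032 and -0.57 ± 0.032.

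Srrm1, the other SR-related speckle protein, moved like Srrm2 in KO cells. It stood at 232, 224 and 217 CPM with DMSO, 259.9, 257 and 253 CPM with GSK3326595 and 274, 268 and 270.1 CPM with MRTX1719, without overlap. The log2 fold changes were 0.20 ± 0.024 and 0.27 ± 0.024 in KO cells and -0.14 ± 0.024 and -0.07 ± 0.027 in wild-type cells. The last of these did not pass. The difference between the lines was 0.34 ± 0.034 for GSK3326595 (edgeR adjusted p = 1.7e-16). In T cells Srrm1 was 0.09 ± 0.036 with GSK3326595, a call lost without replicate 1 of DMSO or replicate 1 or 2 of GSK3326595.

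Rbm25, which regulates the choice of splice sites in Bcl2l1, stood at 179.8, 169.7 and 169.9 CPM with DMSO, 149, 148 and 146 CPM with GSK3326595 and 179.5 and 169.8 CPM with MRTX1719 in wild-type cells. It fell with GSK3326595, by a log2 fold change of -0.23 ± 0.027, its value with MRTX1719 was 0.01 ± 0.029, and MRTX1719 lay 0.24 ± 0.030 above GSK3326595 (edgeR adjusted p = 5.19e-12). In T cells it stood at 1247, 1232 and 1299, 1092, 1121 and 1067 and 1261, 1239 and 1246 CPM with DMSO, GSK3326595 and MRTX1719, and again it fell with GSK3326595, by -0.20 ± 0.032, with MRTX1719 0.19 ± 0.032 above GSK3326595. Rbm39, a relative of the splicing factor U2af2, rose with GSK3326595 in wild-type cells, by 0.14 ± 0.021, and with MRTX1719 in wild-type and KO cells, by 0.07 ± 0.023 and 0.15 ± 0.021. The call with MRTX1719 in wild-type cells was lost without replicate 1 or 2 of DMSO, without either MRTX1719 library or without the filter on low counts. Rbm5, a regulator of the splicing of apoptosis genes, fell in KO cells with both compounds, by -0.10 ± 0.030 and -0.12 ± 0.030, and rose in T cells with GSK3326595, by 0.25 ± 0.039.

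Over all 43 genes, the effect of GSK3326595 differed between the lines for 28, with 13 higher and 15 lower in KO cells, where 42.2% of all genes passed (22% higher and 20.2% lower). The effect of MRTX1719 differed for 31, with 12 higher and 19 lower, where 58.2% of all genes passed (30.3% and 27.9%). With only the compared groups fitted these were 9 and 22, and without the filter on low counts 9 and 21. MRTX1719 and GSK3326595 were compared directly at the same dose and day in 3 kinds of cells. In wild-type cells 15 genes were higher and 9 lower with MRTX1719, where 30% of all genes passed (15.4% higher and 14.6% lower). Without replicate 1 of MRTX1719 these were 6 and 8. In KO cells 12 were higher and 16 lower, where 53.2% of all genes passed (28.3% and 24.9%), and without the filter on low counts 7 and 17. In T cells 5 were higher and 19 lower, where 39.1% of all genes passed (19.3% and 19.7%). The 5 in T cells became 3 without replicate 3 of GSK3326595 or replicate 2 of MRTX1719. By role, 9 of the 18 hnRNPs were lower with MRTX1719 than with GSK3326595 in T cells and 1 was higher, and in KO cells 10 were lower and 3 higher.

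Other genes of the pathway came from a list of 55 further splicing regulators, of which 52 were tested. In KO cells 31 of them rose and 10 fell with MRTX1719, and 25 rose and 10 fell with GSK3326595. So 78.8% and 67.3% of them passed, beside 70.5% and 52.8% of all genes. Those that moved most with MRTX1719 there were Ddx17, an RNA helicase, at a log2 fold change of -1.44 ± 0.022, Rbmx, an hnRNP relative encoded on the X chromosome, at -1.01 ± 0.092, and Zranb2, a speckle protein, at -0.96 ± 0.037. In wild-type cells 14 rose and 19 fell with GSK3326595 and 9 rose and 4 fell with MRTX1719, with the largest change for Rbmx, at -0.75 ± 0.082 with GSK3326595. There 63.5% and 25% passed, beside 41.1% and 7.53% of all genes. In T cells 20 rose and 15 fell with GSK3326595, led by Hnrnph3 and Nono, at 0.92 ± 0.047 and 0.90 ± 0.038, and by Rbmx, at -0.88 ± 0.078. MRTX1719 raised 13 and lowered 19 there, led by Rbm4, at 0.84 ± 0.28. So 67.3% passed in T cells with GSK3326595 and 61.5% with MRTX1719, beside 52.8% and 37.4% of all genes. Between the lines under DMSO 25 were higher and 19 lower in KO cells, led by Zranb2, at -0.91 ± 0.031. So 84.6% passed there, beside 73.2% of all genes.

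The 15 genes of nonsense-mediated decay and the exon junction complex, which clear RNA with poison exons, were described in the same way. In KO cells 7 rose and 4 fell with GSK3326595 and 10 rose and 3 fell with MRTX1719. So 73.3% and 86.7% passed, beside 52.8% and 70.5% of all genes. Magohb, an exon junction core protein, had a log2 fold change of 2.09 ± 0.36 with MRTX1719, Smg6, the endonuclease of the pathway, of -0.63 ± 0.028, and Smg8, a regulator of the kinase Smg1, of 0.57 ± 0.039. In wild-type cells 5 rose and 3 fell with GSK3326595, and 1 rose and 2 fell with MRTX1719. There 53.3% and 20% passed, beside 41.1% and 7.53% of all genes. In T cells 4 rose and 6 fell with GSK3326595 and 3 rose and 4 fell with MRTX1719, and Upf1, the central helicase of decay, fell with both, by -0.43 ± 0.038 and -0.59 ± 0.039. There 66.7% and 46.7% of the decay and exon junction genes passed, beside 52.8% and 37.4% of all genes. Between the lines 3 were higher and 9 lower in KO cells under DMSO, and among those that passed the most changed were Smg6, at 0.83 ± 0.028, and Upf2, a core decay factor, at -0.82 ± 0.037. So 80% of the decay and exon junction genes passed, beside 73.2% of all genes. Whether these levels bear on the levels of the 43 genes was not tested.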

How the data were processed

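Cells were lysed in Trizol, and column-purified RNA was made into directional poly(A) libraries, per the labels' protocols. For each kind of cell the authors deposited a table of raw gene counts and a table of normalized signal. The tools were Bowtie2 2.1.0, DESeq 1.18.0 and TopHat2 2.0.10, on GRCm39, per the submitters' processing notes. How reads were counted (program, annotation, strand) is not given in the sources used here, and overlapping, antisense or near-identical genes may therefore share reads. The deposited normalized signal equals the raw counts divided by 1 factor per library. Matching the values within 1e-06 tied 15629 of 15629 and 15287 of 15300 rows to a single identifier, which gave the gene names.

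Raw counts were fitted with edgeR 4.0.16 in R 4.3.3, with TMM scaling, filterByExpr and a robust quasi-likelihood test, with every group of a table fitted at once and without covariates. After the filter 14835 genes of the MC38 table and 13753 of the T cell table remained. Adjusted p-values are Benjamini-Hochberg values over all of these. Levels are CPM on TMM-scaled library sizes, and the number after ± is the SE of a log2 value. There were 12 comparisons. In simulated data 50 genes were changed 1.2-fold. The fit recovered 80% of them in the comparison of wild-type cells with GSK3326595 (14444 genes). It recovered 58% in that of T cells with GSK3326595 (13648 genes). In the real data 41.1% and 52.8% of all genes passed in these comparisons. The splicing regulators described above are also more strongly counted than most genes tested. These shares thus give no recovery rate for the regulators, which was not tested. Replicates differed by more than sampling noise, at 1.40 to 3.74 of chi-square per gene, and 0 pairs held identical values.

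The 43 genes, the other gene lists and the tests were chosen with earlier results of these data known. In each comparison up to 3 members per direction past the threshold, ranked by the size of the log2 fold change, were described with the value of every library. Other members were described by role, and at most 3 genes per other list and comparison were named. The alternatives tried were RLE scaling, DESeq2 1.42.0, no filter, the replicate number as a block, fits of the compared groups alone and leaving out each library. Transcript models and exon sequences are from GENCODE M21 on GRCm38, not the authors' build, and no value was read at their coordinates.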

Additional observations from a re-analysis of the deposited data

Results flagged for a closer look

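Of the 43 genes, 28 differed between the MC38 lines in the effect of GSK3326595, where 42.2% of all genes did. The test was edgeR's test of the difference itself. The differences of the log2 fold changes (KO minus wild-type) were largest for Srrm2 at 0.46, Srsf4 at 0.37 and Srrm1 at 0.34 on the higher side. On the lower side they were largest for Srsf7 at -0.42, Tra2a at -0.36 and Hnrnpc at -0.33. For MRTX1719 the same test called 31 of the 43 genes, where 58.2% of all genes passed. Srrm2 was at 0.48, Clk2 at 0.47 and Srsf4 at 0.40 on the higher side, and Srsf5 at -0.58, Hnrnpr at -0.50 and Srsf6 at -0.47 on the lower side.

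Some genes had every treated library on one side of DMSO in MC38 cells and on the other side in T cells. The tables were fitted separately, so these differences were not tested. How many of all genes did so was not counted. With GSK3326595 there were 12 such genes between KO cells and T cells, among them Srrm2 (log2 0.36 in KO cells and -0.46 in T cells), Srsf3 (-0.28 and 0.37) and Hnrnpdl (-0.30 and 0.09). With MRTX1719 there were 10, among them Srrm2 (0.41 and -0.57), Srsf3 (-0.29 and 0.38) and Hnrnpa1 (-0.25 and 0.39). Between wild-type MC38 cells and T cells there were 7 with GSK3326595, among them Srsf9 (-0.14 and 0.43) and Hnrnpll (-0.15 and 0.43), and 2 with MRTX1719. The 2 were Srsf6 (0.04 and -0.20) and Clk4 (0.07 and -0.13), and neither passed the test in wild-type cells, where MRTX1719 had 2 libraries. All these counts rest on the ranges of the libraries alone. They include values that did not pass, such as Rbm5 in wild-type cells with GSK3326595 (-0.03).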

How the results depend on the processing

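No value of the 43 genes changed direction past the threshold under any alternative run. Without the low count filter, 12 genes in place of 19 were higher in wild-type cells with GSK3326595, 7 in place of 12 were higher with MRTX1719 than with GSK3326595 in KO cells, and with MRTX1719 in wild-type cells 7 in place of 11 passed, 2 of them lower. DESeq2 gave 2 lower genes in place of 4 in wild-type cells with MRTX1719. Without the filter and with DESeq2 alike, 3 in place of 5 were higher with MRTX1719 than with GSK3326595 in T cells. Leaving out 1 library at a time, wild-type cells with MRTX1719 gave 3 to 10 calls, 2 to 7 higher and 0 to 3 lower. MRTX1719 against GSK3326595 gave 14 to 22 calls in wild-type cells, 6 to 13 of them higher, and 3 to 5 higher genes in T cells. Over all genes, wild-type cells with MRTX1719 gave 1117 calls, but 742 with DESeq2, 433 without MRTX1719 replicate 1 and 510 without replicate 3. The causes were not tested. With RLE scaling 514 of 516 gene values kept their call. Replicate numbers did not pair the libraries: in MC38 cells same-numbered libraries had correlations between -0.0493 and 0.0454, and in T cells between -0.0396 and 0.0386. With the replicate number as a block, 7 calls were lost and 0 gained among the 516 gene values, called or not. In wild-type cells with MRTX1719, 7 genes were then higher and 3 lower, and in T cells with GSK3326595 23 were higher and 10 lower. Wild-type cells with MRTX1719 had 2 libraries. The T cell table had 13813406 to 20772699 counts per library, beside 19302768 to 27786226 in MC38 cells, and a common biological coefficient of variation of 0.0372, beside 0.0198, and the part of each in which small changes passed was not tested.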
